A study of Homo sapiens with 60 samples.

Results

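The mitotic spindle and division genes are 44 genes, chosen by symbol from a list of G2/M genes, that act from the G2 phase to the separation of daughter cells. All 44 were found by Ensembl identifier among the 60675 gene identifiers of the table and all 44 were among the 17792 genes with enough counts to be tested. They were followed in SW1783, a human astrocytoma cell line grown in L-15 medium, by mRNA sequencing of 60 libraries in 20 groups of 3. Every group was collected 24 h after treatment. The vehicle group was labelled 0.1% DMSO, although the series description gives 2%, and the positive control received 10 µM wortmannin, an inhibitor of phosphoinositide 3-kinases. The other 18 groups received a water extract of Schisandrae Fructus, Longan Arillus, Zizyphi Semen, Aucklandiae Radix or Liriopis seu Ophiopogonis Tuber at 500, 100 or 20 µg/mL, or of Polygalae Radix at 250, 50 or 10 µg/mL, called here the high, medium and low doses. The lower range for Polygalae follows a rule in the series description, by which an extract whose IC20 lay under the common top dose was used at its IC20 and at 2 dilutions of it. All libraries thus share 1 tumour line in culture, and whether the 3 libraries of a group were grown as separate cultures is not labelled, so the p-values below cover only library-to-library spread.

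Entry into mitosis is driven by cyclin B bound to the kinase CDK1, which is switched on by CDC25 phosphatases and helped by the kinases PLK1 and AURKA. Kinetochores then attach chromosomes to spindle microtubules, and the spindle checkpoint proteins BUB1, BUB3, MAD2L1 and TTK hold the cell until every chromosome is attached. CDC20 and UBE2C next activate the anaphase-promoting complex, which has securin (PTTG1) and the cyclins destroyed, while kinesins, PRC1, ANLN and ECT2 build the midzone and the cleavage furrow. Many of these genes are transcribed together late in the cell cycle through 2 kinds of promoter element, the CCAAT box bound by NF-Y and the cell cycle homology region (CHR) bound by MuvB complexes that contain B-MYB or, in resting cells, the DREAM proteins.

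Promoters are shown because the genes mostly moved together. RefSeq promoter windows (GRCh38.p14, from 250 bases before to 50 after the annotated start, 300 bases in all) were matched by symbol for 37 of the 44 genes. The motifs searched on both strands were CCAAT, and TTTGAA or TTCGAA for the CHR. A CCAAT match and a CHR match can share an end letter, and TTCGAA, which reads alike on both strands, was counted once. Printed 5′ to 3′ on the gene's own strand, with every match in capitals (ATTGG and TTCAAA are matches on the opposite strand), are 4 of them: CCNB1 (cyclin B1, chr5:69166900-69167199, plus strand), CDC20 (chr1:43358731-43359030, plus strand), PLK1 (chr16:23678639-23678938, plus strand) and KIF20A, the gene with the largest fall (chr5:138178862-138179161, plus strand).
CCNB1: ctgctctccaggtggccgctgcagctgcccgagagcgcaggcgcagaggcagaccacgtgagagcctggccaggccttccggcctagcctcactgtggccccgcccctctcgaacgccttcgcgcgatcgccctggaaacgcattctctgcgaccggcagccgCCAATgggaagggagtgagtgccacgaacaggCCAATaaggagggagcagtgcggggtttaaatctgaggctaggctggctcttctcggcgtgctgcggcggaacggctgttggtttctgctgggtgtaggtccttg
CDC20: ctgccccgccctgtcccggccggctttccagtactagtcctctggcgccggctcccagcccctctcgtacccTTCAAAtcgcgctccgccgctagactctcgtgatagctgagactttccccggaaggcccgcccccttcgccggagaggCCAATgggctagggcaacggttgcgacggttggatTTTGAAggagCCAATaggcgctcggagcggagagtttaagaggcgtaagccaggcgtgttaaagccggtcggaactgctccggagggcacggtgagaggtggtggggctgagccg
PLK1: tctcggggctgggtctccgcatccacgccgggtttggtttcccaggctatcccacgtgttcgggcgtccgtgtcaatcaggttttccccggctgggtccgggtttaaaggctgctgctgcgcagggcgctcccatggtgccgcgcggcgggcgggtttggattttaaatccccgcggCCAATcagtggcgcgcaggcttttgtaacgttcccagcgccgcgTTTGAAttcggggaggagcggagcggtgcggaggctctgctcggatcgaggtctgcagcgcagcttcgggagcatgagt
KIF20A: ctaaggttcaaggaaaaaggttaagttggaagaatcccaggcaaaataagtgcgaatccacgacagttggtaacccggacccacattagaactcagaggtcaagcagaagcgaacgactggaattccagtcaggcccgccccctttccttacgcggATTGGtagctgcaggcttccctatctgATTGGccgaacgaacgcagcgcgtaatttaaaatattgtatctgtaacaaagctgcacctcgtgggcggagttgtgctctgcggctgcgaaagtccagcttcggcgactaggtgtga

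The CDC20 window holds 2 CCAAT and 2 CHR matches and the PLK1 window 1 of each. CCNB1 and KIF20A each hold 2 CCAAT matches and none to these CHR letters, which says only that the letters are not in this window. Over the 37 promoters, 29 (78.4%, exact 95% interval 61.8 to 90.2%) held a CCAAT box, against 35.7% of 27305 genes with a window in the RefSeq table. A CHR match was found in 27 (73.0%, interval 55.9 to 86.2%) against 16.6%, and both kinds in 23 (62.2%, interval 44.8 to 77.5%) against 6.58%. The intervals cover counting error only. Of the 63 CCAAT matches, 35 lay between 100 and 50 bases before the start, and 28 of the 38 CHR matches lay within 50 bases of the start on either side. A match is a description of the letters and no evidence that a factor was bound in these cells.

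**Figure D1:**
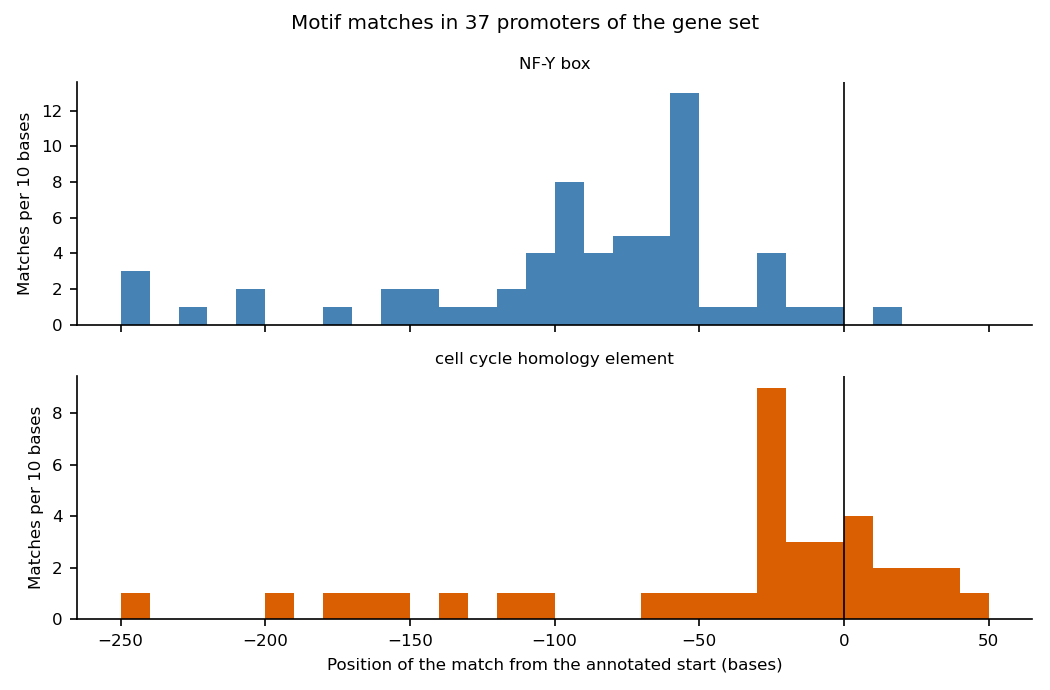
Histograms of motif matches in the promoters of 37 of the genes, in bins of 10 bases, by position from the annotated start (x axis, bases; negative values lie before the start). The 63 matches to the NF-Y (CCAAT) box have their median at -79 and the 38 matches to the cell cycle homology element at -23.

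Library totals ran from 9.34 M to 35.35 M expected counts (median 25.71 M), and the lowest count of any of the 44 genes in any library was 82 (SPC25). Liriopis_high replicate 1 stands apart: its mean Pearson correlation with its own group across genes was 0.945, against at least 0.984 for the libraries of every other group. Of the 10 astrocyte markers, VIM (mean 4583 CPM, that is, counts scaled to the TMM-normalised library total), CD44 (2605 CPM), GJA1 (195 CPM), the glutamate transporter SLC1A3 (26.4 CPM) and NES (6.45 CPM) were counted in every library. SLC1A2 had 0.235 CPM, and GFAP, S100B, AQP4 and ALDH1L1 were near 0 (means of at most 0.131 CPM). Among epithelial markers EPCAM and CDH1 were near 0 (means of at most 0.0265 CPM) and KRT19 low (0.301 CPM), but the keratins KRT18 (117 CPM) and KRT8 (16.1 CPM) were not. Among neuron markers ENO2 (77.6 CPM), SNAP25 (24.2 CPM) and SYT1 (21.8 CPM) were counted in every library, while RBFOX3 (0.241 CPM) and STMN2 (0.0564 CPM) were low. The T cell gene CD3E was at 0 in 58 libraries, and PTPRC, the pan-leukocyte surface phosphatase, had a mean of 7.96 CPM. Library names place vehicle, wortmannin and the pairs of herbs in different sets, so a treatment and its set cannot be told apart in a comparison with vehicle, whereas the 3 doses of a herb share a set. 

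In vehicle-treated cells these were well-expressed genes. Per kilobase of summed exon, their median was 22.8 CPM, against 2.99 CPM over all tested genes. CDC20, the activator of the anaphase-promoting complex, was highest at 114 ± 4.10 CPM per kilobase (SD, n = 3). ANLN (81.4 ± 5.30), TOP2A (74.6 ± 3.37), TPX2 (73.9 ± 1.41), CDC25B (72.2 ± 0.798) and CCNB1 (70.0 ± 0.992) followed, on the same scale, and CDC20 stood clear of ANLN by more than their summed SDs. The others each lay within the summed SDs of the next, except CCNB1, which lay below CDC25B by more than that. At the low end were CENPE (6.50 ± 0.467), CDC25C (5.85 ± 0.337) and the NDC80 complex subunit SPC25 (5.03 ± 0.156), the lowest, which still exceeded 60.8% of tested genes. Summed exons of all annotated isoforms understate the level of genes with long alternative ends. Near-identical copies that could take reads were scarcely counted: KIF4B averaged 3.43 counts per library, CDC20P1 5.27 and PTTG2, PTTG3P and UBE2CP4 under 1.

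Across the 20 groups the 44 genes had their highest mean most often in Schisandrae_high (34 genes) and their lowest most often in Polygalae_high (24 genes) or wortmannin (17 genes). There is no share over all genes to set beside these counts. Against vehicle, 25.3% of all tested genes were higher in Schisandrae_high, and 22.9% were lower in Polygalae_high and 6.52% with wortmannin. Their summed level was 5563 ± 135 CPM with vehicle (SD, n = 3), 6883 ± 87.6 CPM in Schisandrae_high, 4167 ± 164 CPM in Polygalae_high and 4588 ± 24.5 CPM with wortmannin. The means of the other 16 groups ran from 5312 to 5928 CPM. In bulk RNA, a different share of dividing cells and a different amount of each mRNA per dividing cell cannot be told apart.

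**Figure D2:**
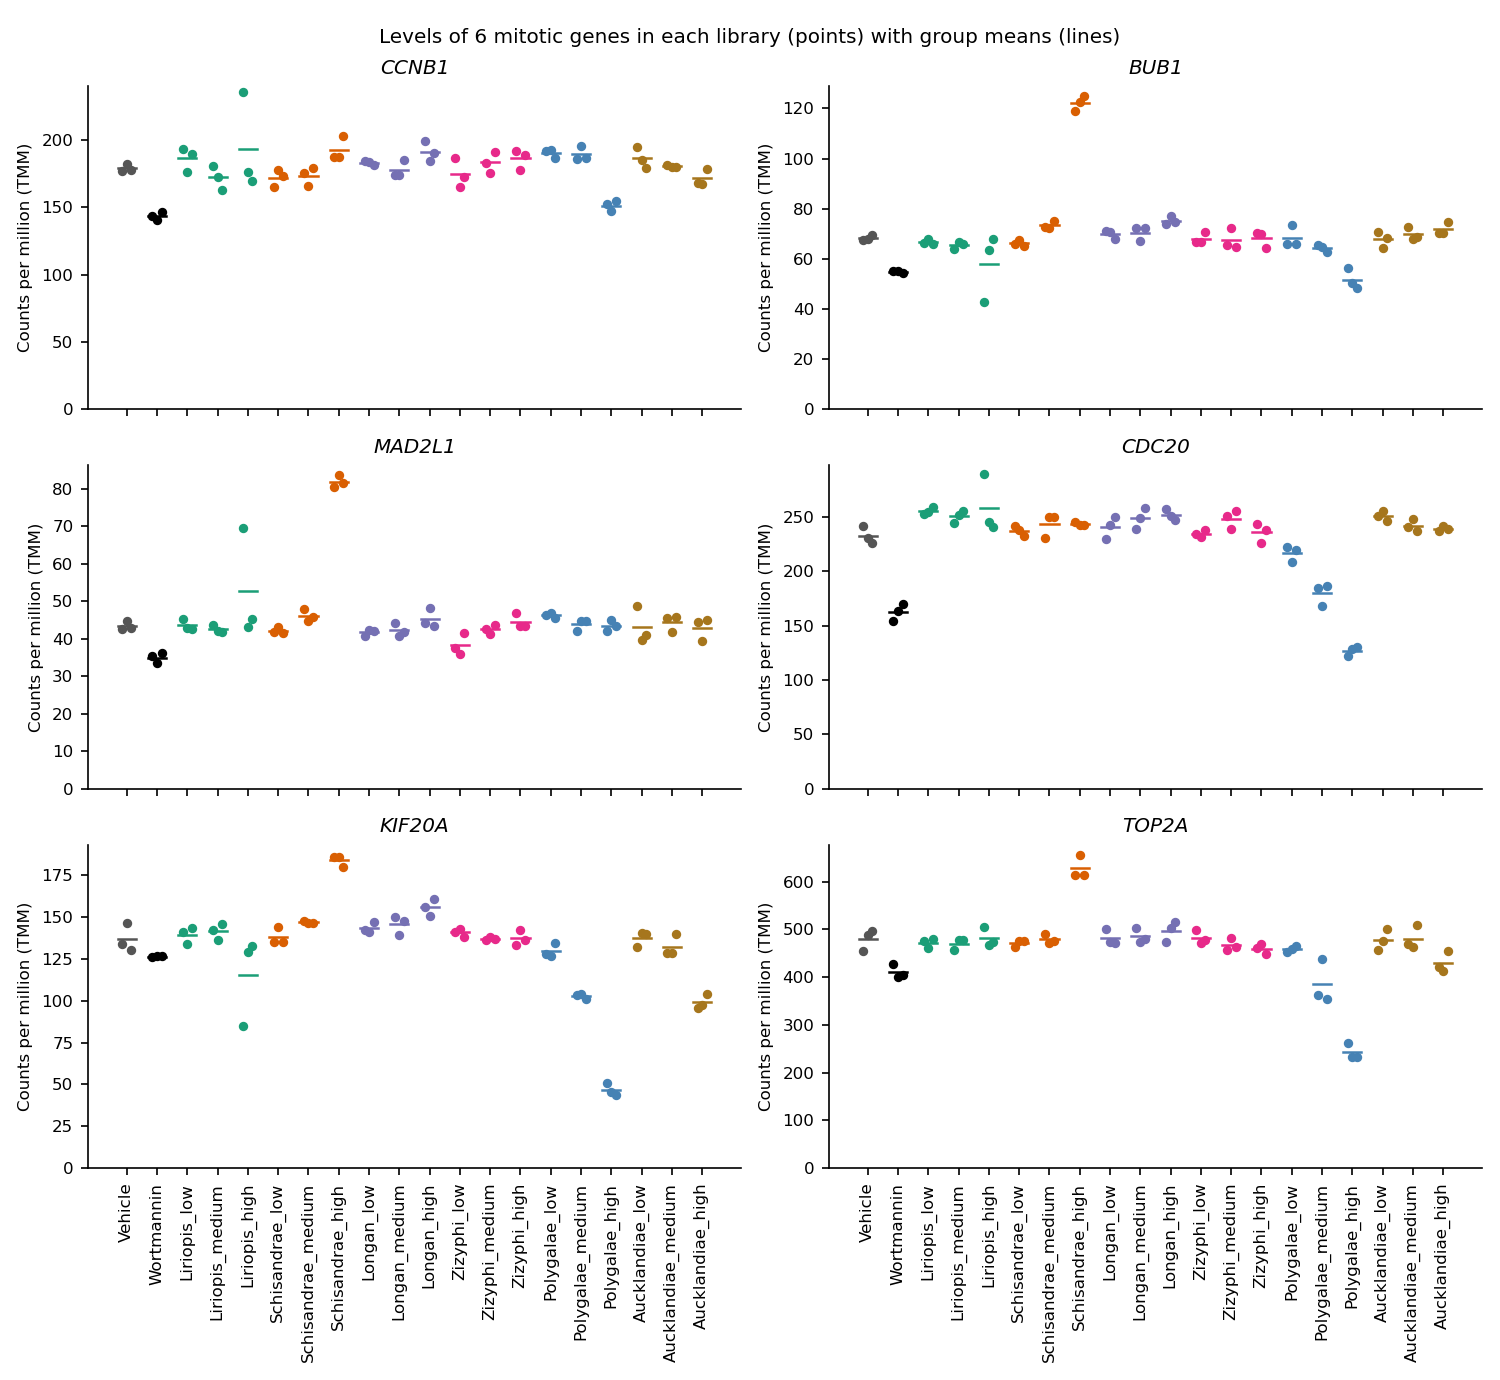
CPM (y axis, TMM-normalised) of CCNB1, BUB1, MAD2L1, CDC20, KIF20A and TOP2A in every library (points) of the 20 groups (x axis), with group means as lines. BUB1 and MAD2L1 stand high in Schisandrae_high, CDC20, KIF20A and TOP2A fall over the Polygalae doses, and 1 of the 3 Liriopis_high libraries lies far from the other 2.

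Schisandrae Fructus at the high dose raised most of the mitotic genes, by the most for the checkpoint genes MAD2L1, BUB3 and BUB1. Between the high and the low dose, 35 of the 44 rose and 1 (CDC25B) fell by edgeR's quasi-likelihood test with Benjamini-Hochberg adjustment over all tested genes at 0.05, in a comparison in which 25% of all tested genes rose. The median log2 fold change of the 44 was 0.41, and that of all tested genes 0.00. All 5 checkpoint genes and all 4 genes of the chromosomal passenger complex rose, as did all 3 cytokinesis genes. Between the medium and the low dose no member was called, with 0.332% of genes called overall. At an unadjusted p below 0.05, 4 members passed, and the share of all genes passing that threshold is not given here. DESeq2 called none, and 2 rose once Liriopis_high replicate 1 was left out of the fit, where all genes called went from 59 to 306.

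Among the checkpoint genes, MAD2L1, which forms the inhibitory complex that restrains CDC20, read 80.4, 83.6 and 81.3 CPM at the high dose against 41.8, 43.2 and 41.4 CPM at the low dose. Every high-dose library lay far above every low-dose library, which is 1.94-fold (log2 0.96, SE 0.09, adjusted p = 5.73e-13). BUB1, the kinase that marks centromeres for the checkpoint, read 119, 122 and 125 CPM against 65.8, 67.7 and 65.0 CPM, without overlap (log2 fold change 0.88, SE 0.08, adjusted p = 1.31e-13). BUB3, its partner, rose by a like amount, from 125, 121 and 110 CPM to 221, 219 and 224 CPM (log2 fold change 0.90, SE 0.07, adjusted p = 9.15e-16). The checkpoint kinase TTK read 93.6, 96.7 and 96.8 CPM against 66.5, 67.2 and 64.6 CPM. Its rise of 0.53 (SE 0.05, adjusted p = 1.36e-12) was smaller, and BUB1B, the kinetochore-bound BUBR1, rose by 0.41 (SE 0.08).

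Of the 8 genes of the entry switch, 7 rose. CCNA2, the S and G2 cyclin, moved most, from 74.4, 76.2 and 76.9 CPM to 127, 139 and 134 CPM (log2 fold change 0.81, SE 0.05, adjusted p = 1.19e-18). CDK1 itself read 84.5, 88.9 and 83.8 CPM against 56.0, 61.3 and 55.0 CPM, a clear separation (log2 fold change 0.58, SE 0.08). CCNB1 moved far less: its high-dose libraries at 188, 187 and 203 CPM lay just above 165, 178 and 174 CPM (log2 fold change 0.16, SE 0.07, adjusted p = 0.0367), and the call was lost when any of 3 libraries was left out. CDC25B, a CDK-activating phosphatase, was the exception, at 286, 275 and 272 CPM against 303, 315 and 324 CPM, and fell by 0.18 on the log2 scale (SE 0.05, adjusted p = 0.00144). Its relative CDC25C rose (log2 fold change 0.67, SE 0.07), as did CCNB2, the other B-type cyclin (0.61, SE 0.06). PLK1 (0.24, SE 0.05) and AURKA (0.29, SE 0.04) rose by small amounts in log2 fold change, with PLK1 at 181, 179 and 173 CPM against 149, 159 and 142 CPM and AURKA at 135, 145 and 144 CPM against 118, 121 and 108 CPM.

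In the passenger complex, which corrects faulty attachments, AURKB rose from 38.8, 43.7 and 39.1 CPM to 69.0, 64.3 and 71.6 CPM (log2 fold change 0.75, SE 0.10, adjusted p = 3.81e-08). BIRC5 (survivin), read at 161, 163 and 151 CPM against 126, 133 and 143 CPM, rose by 0.24 (SE 0.09, adjusted p = 0.0229) in log2 fold change, and the call was lost without any of 4 of the 6 libraries. The scaffold INCENP (0.45, SE 0.15) and CDCA8 (borealin; 0.22, SE 0.04) rose as well. Of the genes for anaphase and exit, UBE2C, the ubiquitin-conjugating enzyme of the anaphase-promoting complex, rose from 79.8, 76.7 and 60.4 CPM to 128, 110 and 131 CPM (log2 fold change 0.77, SE 0.14), and securin, PTTG1, rose by 0.63 (SE 0.18) in log2 fold change. CDC20 was not called: 245, 242 and 243 CPM stood just above 242, 237 and 232 CPM (log2 fold change 0.04, SE 0.05, adjusted p = 0.562).

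Among kinetochore genes, NUF2 (log2 fold change 0.58, SE 0.08) and CENPA (0.52, SE 0.09), the centromeric histone, rose, and CENPE, the kinetochore motor, rose from 61.4, 61.4 and 63.9 CPM to 71.5, 77.4 and 72.2 CPM (0.24, SE 0.08). NDC80, which with NUF2 forms the microtubule-binding arm, read 36.4, 38.6 and 38.3 CPM against 32.2, 35.3 and 33.3 CPM (0.17, SE 0.06, adjusted p = 0.0217), and this call also depended on single libraries. SPC24, SPC25 and CENPF were not called. Of the kinesins, KIF2C, a microtubule depolymerase, rose from 78.8, 86.3 and 82.9 CPM to 134, 148 and 139 CPM (log2 fold change 0.76, SE 0.04, adjusted p = 1.24e-19). KIF20A, the cytokinesis motor, read 186, 186 and 180 CPM against 135, 144 and 135 CPM (0.41, SE 0.08, adjusted p = 1.00e-05). KIF14 (0.56, SE 0.11), KIF23 (0.42, SE 0.07) and KIF20B (0.34, SE 0.08), all motors of late division, rose too. KIF4A (0.00, SE 0.05) and the spindle motor KIF11, at 124, 124 and 122 CPM against 117, 111 and 112 CPM (0.13, SE 0.07, adjusted p = 0.11), were not called.

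The spindle assembly factor DLGAP5 rose from 92.5, 101 and 96.6 CPM to 146, 152 and 145 CPM (log2 fold change 0.61, SE 0.07). TPX2, which targets AURKA to the spindle, read 304, 322 and 311 CPM against 254, 273 and 265 CPM (0.24, SE 0.04), while HMMR, at 100, 108 and 98.1 CPM against 87.5, 94.6 and 90.6 CPM, missed the threshold (0.16, SE 0.07, adjusted p = 0.0535). NUSAP1 (0.45, SE 0.06) and PRC1 (0.29, SE 0.04), which bundle microtubules, rose. ECT2, the exchange factor that starts the furrow, rose from 169, 165 and 163 CPM to 223, 233 and 229 CPM (0.46, SE 0.07). ANLN, which scaffolds the contractile ring, read 570, 569 and 571 CPM against 480, 479 and 459 CPM (0.27, SE 0.10, adjusted p = 0.0196; the call ended without Schisandrae_low replicate 3), and RACGAP1, of the centralspindlin complex, rose by 0.16 (SE 0.04). The topoisomerase TOP2A rose from 463, 475 and 476 CPM to 613, 656 and 615 CPM (0.41, SE 0.06). MKI67, the proliferation marker Ki-67, was not called, at 383, 402 and 380 CPM against 336, 356 and 361 CPM (0.15, SE 0.19, adjusted p = 0.563).

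Mitochondrial transcripts took 7.79 to 9.60% of counts in Schisandrae_high and 8.50 to 11.4% in Schisandrae_low, and their part in these results was not tested. Cell type markers also moved, where 25% of all tested genes rose and 24.8% fell. Of 6 tested astrocyte markers 3 fell (summed level 6558 to 6869 CPM at the high dose against 7466 to 7809 CPM at the low dose), as did 1 of 3 tested epithelial markers (62.4 to 66.4 against 139 to 153 CPM). Of 6 tested neuron markers 2 rose and 3 fell (152 to 159 against 119 to 129 CPM), and of 3 tested leukocyte markers 1 rose and 2 fell (3.90 to 4.10 against 13.2 to 14.7 CPM). Their part was not tested either. Against vehicle, 34 members were higher and 1 lower in Schisandrae_high, with 25.3% of genes higher overall. Schisandrae_medium (1.02% of genes called) and Schisandrae_low (0%) had no member called against vehicle in edgeR. At an unadjusted p below 0.05, 3 and 0 members passed, again without the share of all genes. DESeq2 called no member in either.

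**Figure D3:**
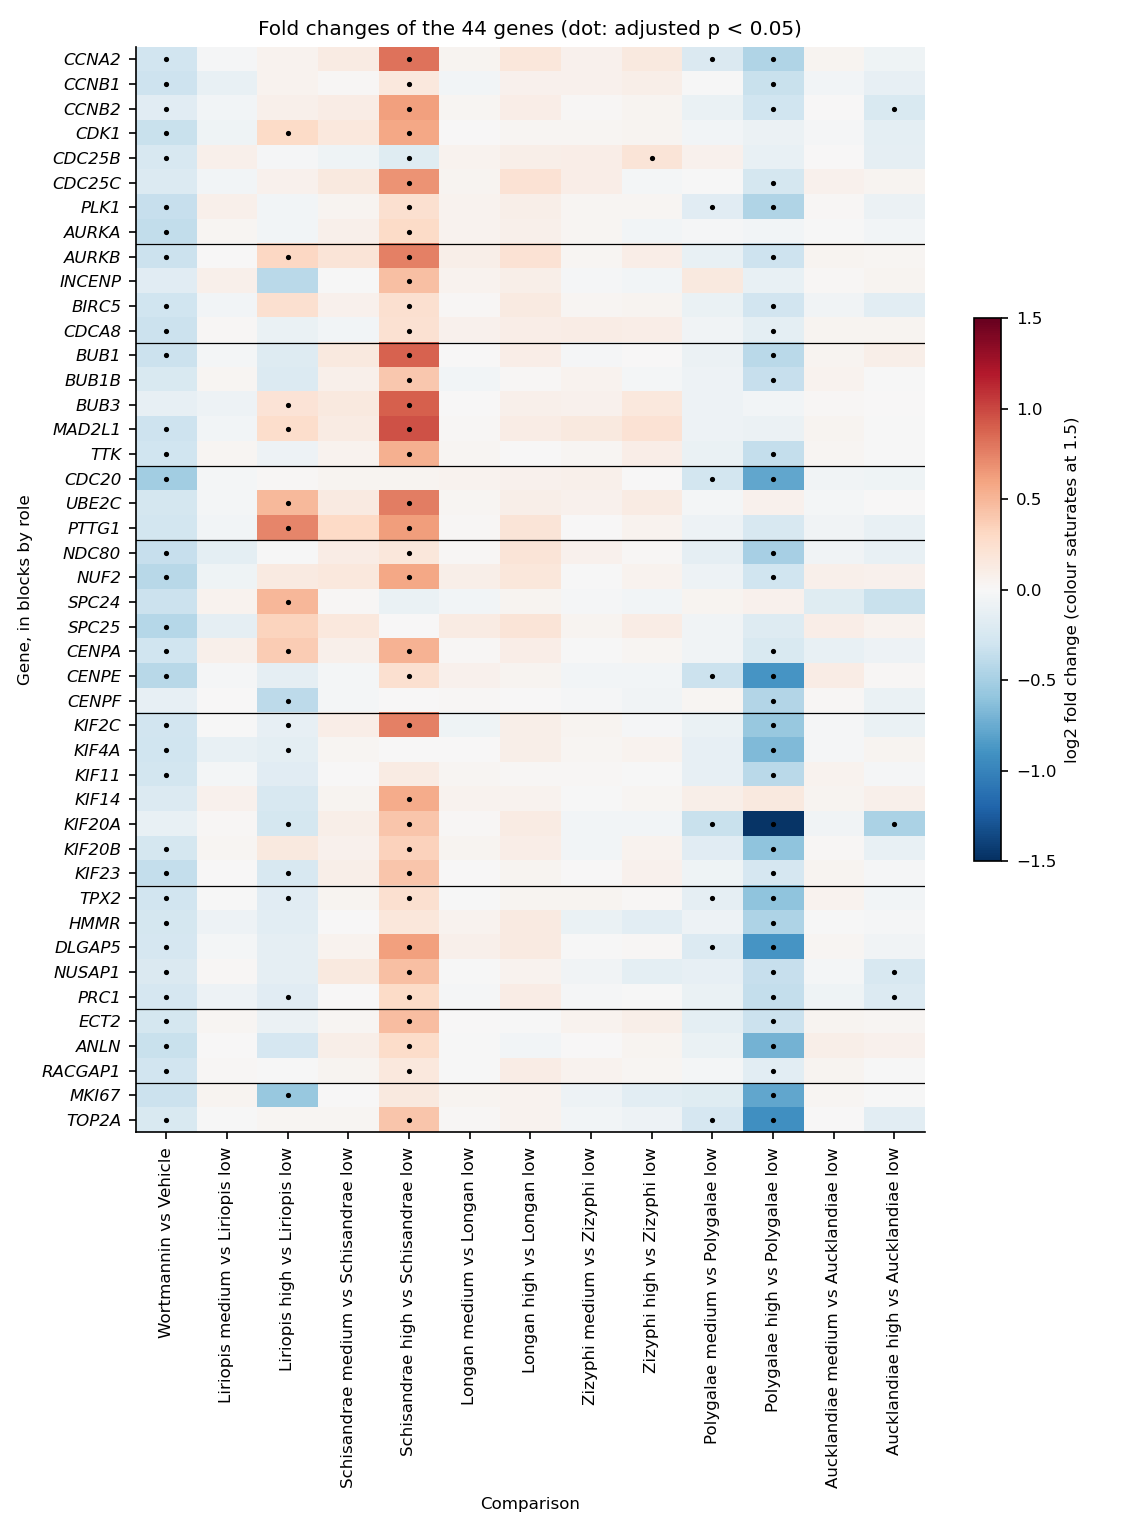
log2 fold changes (colour) of the 44 genes (rows, in blocks by role from the entry switch at the top to chromosome structure at the bottom) in wortmannin against vehicle and in the medium and high against the low dose of each extract (columns). Dots mark adjusted p under 0.05 by edgeR: 33 genes for wortmannin, 36 for the Schisandrae high dose and 33 for the Polygalae high dose.

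Polygalae Radix at its high dose lowered most of the same list, by the most for KIF20A, TOP2A, CENPE and DLGAP5. Between high and low dose 33 of the 44 fell and none rose, where 18.3% of all tested genes fell, and the median log2 fold change was -0.34 for the 44 and 0.01 for all tested genes. Every gene of the spindle assembly, cytokinesis and chromosome structure groups fell, along with 6 of 7 kinesins. At the medium dose 8 fell already and none rose, with 5.7% of all genes lower: KIF20A, CENPE, CDC20, TOP2A, CCNA2, DLGAP5, PLK1 and TPX2. That count was 5 without Polygalae_low replicate 1, and some of these calls are fragile. The TPX2 call ended without any of the 6 compared libraries, the DLGAP5 call without any of 4 of them and the PLK1 call without any of 3. Group means fell at each step from low to medium to high for 37 of the 44 genes, which are not independent, with no share over all genes to set beside it.

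KIF20A carried the largest fall. Its libraries read 128, 127 and 134 CPM at the low dose, 104, 104 and 101 CPM at the medium dose and 50.8, 45.6 and 43.7 CPM at the high dose. The 3 doses did not overlap at any point, and from low to high the gene fell by 1.47 on the log2 scale (SE 0.08, adjusted p = 2.64e-20), to 0.361 of its level. KIF2C fell by 0.57 (SE 0.04), KIF4A, a motor of the central spindle, by 0.66 (SE 0.05), and KIF20B by 0.60 (SE 0.08). KIF11, at 97.6, 88.8 and 89.3 CPM against 126, 119 and 121 CPM, fell by 0.41 (SE 0.07, adjusted p = 1.79e-06). KIF23, of centralspindlin, fell by 0.25 (SE 0.07). KIF14, which acts late in cytokinesis, was the kinesin not called (log2 fold change 0.15, SE 0.11, adjusted p = 0.322).

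Unlike in the Schisandrae comparison, CDC20 was among the genes that changed. It read 222, 209 and 220 CPM at the low dose, 184, 168 and 186 CPM at the medium dose and 122, 128 and 131 CPM at the high dose. Each dose lay below the one before it without overlap, and CDC20 fell by 0.77 (SE 0.05, adjusted p = 2.44e-17) from low to high. UBE2C, at 88.4, 87.0 and 78.0 CPM against 81.6, 78.0 and 83.2 CPM, overlapped and was not called (log2 fold change 0.06, SE 0.14), and PTTG1 was not called either (-0.24, SE 0.18).

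TOP2A fell by 0.92 (SE 0.06, adjusted p = 3.85e-18), from 453, 459 and 466 CPM to 263, 234 and 233 CPM, with 1 of the 3 medium-dose libraries (362, 438 and 354 CPM) near the low-dose range. MKI67 fell by 0.77 (SE 0.19, adjusted p = 0.00122), from 368, 344 and 361 CPM to 239, 188 and 200 CPM. Among the spindle assembly genes DLGAP5 read 57.8, 53.3 and 54.3 CPM against 108, 99.2 and 98.0 CPM and fell by 0.88 (SE 0.07). TPX2 read 188, 173 and 176 CPM against 278, 271 and 269 CPM and fell by 0.61 (SE 0.04). HMMR, which had one medium-dose library at 105 CPM above every low-dose library, read 79.1, 65.1 and 63.0 CPM against 96.9, 93.4 and 95.4 CPM and fell by 0.46 (SE 0.07). PRC1 fell by 0.36 (SE 0.04) and NUSAP1 by 0.35 (SE 0.06).

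At the kinetochore CENPE fell by 0.88 (SE 0.08, adjusted p = 4.66e-13), from 59.6, 61.3 and 59.2 CPM to 35.3, 30.4 and 32.0 CPM, and NDC80 fell by 0.50 (SE 0.06), from 35.8, 32.8 and 36.5 CPM to 25.1, 23.4 and 25.9 CPM. Both were clear of overlap, while SPC24 and SPC25 overlapped between doses and were not called. CENPF fell by 0.44 (SE 0.11), NUF2 by 0.29 (SE 0.08) and CENPA by 0.23 (SE 0.09), and the CENPA call ended when any of 5 libraries was left out. In the cytokinesis group ANLN fell by 0.70 (SE 0.10), from 512, 510 and 504 CPM to 348, 293 and 296 CPM, and ECT2 by 0.32 (SE 0.07), from 164, 169 and 171 CPM to 138, 133 and 132 CPM. RACGAP1 fell by 0.16 (SE 0.04).

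The entry switch moved less and not as a whole. PLK1 fell by 0.46 (SE 0.05), from 164, 149 and 162 CPM to 112, 119 and 116 CPM, CCNA2 by 0.46 (SE 0.05), and CCNB1 by 0.33 (SE 0.07), from 192, 192 and 187 CPM to 152, 147 and 155 CPM. CDK1, at 60.1, 65.6 and 64.8 CPM against 67.4, 68.2 and 67.6 CPM, and AURKA, at 117, 118 and 124 CPM against 122, 118 and 130 CPM, were not called (adjusted p = 0.424 and 0.455), and neither was CDC25B. CCNB2 fell by 0.30 (SE 0.06) and CDC25C by 0.26 (SE 0.07). In the checkpoint BUB1 fell by 0.40 (SE 0.08), from 66.0, 73.7 and 65.8 CPM to 56.4, 50.6 and 48.4 CPM, and TTK by 0.36 (SE 0.05), from 75.2, 74.2 and 73.0 CPM to 58.0, 57.5 and 58.1 CPM, and BUB1B by 0.34 (SE 0.08). The genes with the 2 largest rises under Schisandrae, MAD2L1 (-0.09, SE 0.09) and BUB3 (-0.04, SE 0.07), were not called here. AURKB fell by 0.31 (SE 0.11), from 39.5, 38.4 and 41.8 CPM to 33.0, 33.1 and 30.5 CPM, a call lost when either of 2 libraries was left out, and BIRC5 by 0.29 (SE 0.09), from 131, 130 and 127 CPM to 106, 104 and 108 CPM. CDCA8 fell by 0.14 (SE 0.04), a call lost without Polygalae_high replicate 1, without Polygalae_low replicate 3 or with no filter on low counts, and INCENP was not called.

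Mitochondrial transcripts took 12.4 to 13.4% of counts in Polygalae_high against 7.87 to 11.0% in Polygalae_low, and the TMM factors were 1.08 to 1.12 against 1.00 to 1.05. Cell type markers moved as well, where 17.9% of all tested genes rose and 18.3% fell. All 3 tested epithelial markers fell (median log2 fold change -1.61; summed level 41.5 to 43.8 CPM at the high dose against 113 to 117 CPM at the low dose), and so did 4 of 6 tested astrocyte markers (median -0.62; 3634 to 3981 against 6684 to 7102 CPM). Of 6 tested neuron markers 1 rose and 2 fell (158 to 170 against 138 to 142 CPM), and 1 of 3 tested leukocyte markers fell (3.25 to 3.90 against 8.89 to 10.1 CPM). Their part in the result was not tested. Against vehicle 28 members were lower in Polygalae_high, with 22.9% of genes lower, and 1 was higher, KIF14, whose libraries overlapped those of vehicle and which DESeq2 did not call. Polygalae_medium had 7 members called against vehicle, 5 lower (KIF20A, CDC20, CENPE, TOP2A and CCNA2) and 2 higher (RACGAP1 and CDC25C), where 30.1% of all genes were called, a larger share than that of the members. That comparison had 7 higher and 9 lower without Liriopis_high replicate 1, where all genes called went from 5356 to 7308. In Polygalae_low 2 members, KIF2C and RACGAP1, were higher than vehicle, with 3.01% of genes higher. Without that library 6 were, and all genes called, in either direction, went from 1150 to 2512.

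The 2 extracts were then compared directly, through the difference between their high-minus-low log2 fold changes. Their groups share no library, but they belong to different library sets and their doses differ, 500 against 20 µg/mL and 250 against 10 µg/mL, so the contrast sets 2 dose steps side by side and not 2 matched doses. Of the 44 genes, 41 had the larger fold change under Schisandrae and none under Polygalae, with 20.7% of all genes called in the first direction, and the median difference was 0.77 for the 44 and 0.00 for all tested genes. The differences were largest for KIF20A (1.89, SE 0.11, adjusted p = 5.64e-19), DLGAP5 (1.49, SE 0.10), TOP2A (1.33, SE 0.08) and KIF2C (1.33, SE 0.06). For CDC25B the difference was -0.07 (SE 0.07), for SPC24 -0.16 (SE 0.22) and for SPC25 0.20 (SE 0.19), and none of the 3 was called.

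Both responses held for 27 genes, which rose under Schisandrae and fell under Polygalae, out of 35 that rose and 33 that fell. With lists of this size among 44 genes, a large overlap follows from the list sizes alone. A further 8 rose without a called fall (CDK1, AURKA, INCENP, BUB3, MAD2L1, UBE2C, PTTG1 and KIF14), and 6 fell without a called rise (CDC20, CENPF, KIF4A, KIF11, HMMR and MKI67). The sizes of the 2 responses were nearly unrelated: across the 44 genes, which are not independent replicates, Pearson's r between the log2 fold changes was 0.15 and Spearman's rho 0.21. MAD2L1, BUB3 and BUB1 had the largest rises and KIF20A, TOP2A and CENPE the largest falls.

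**Figure D4:**
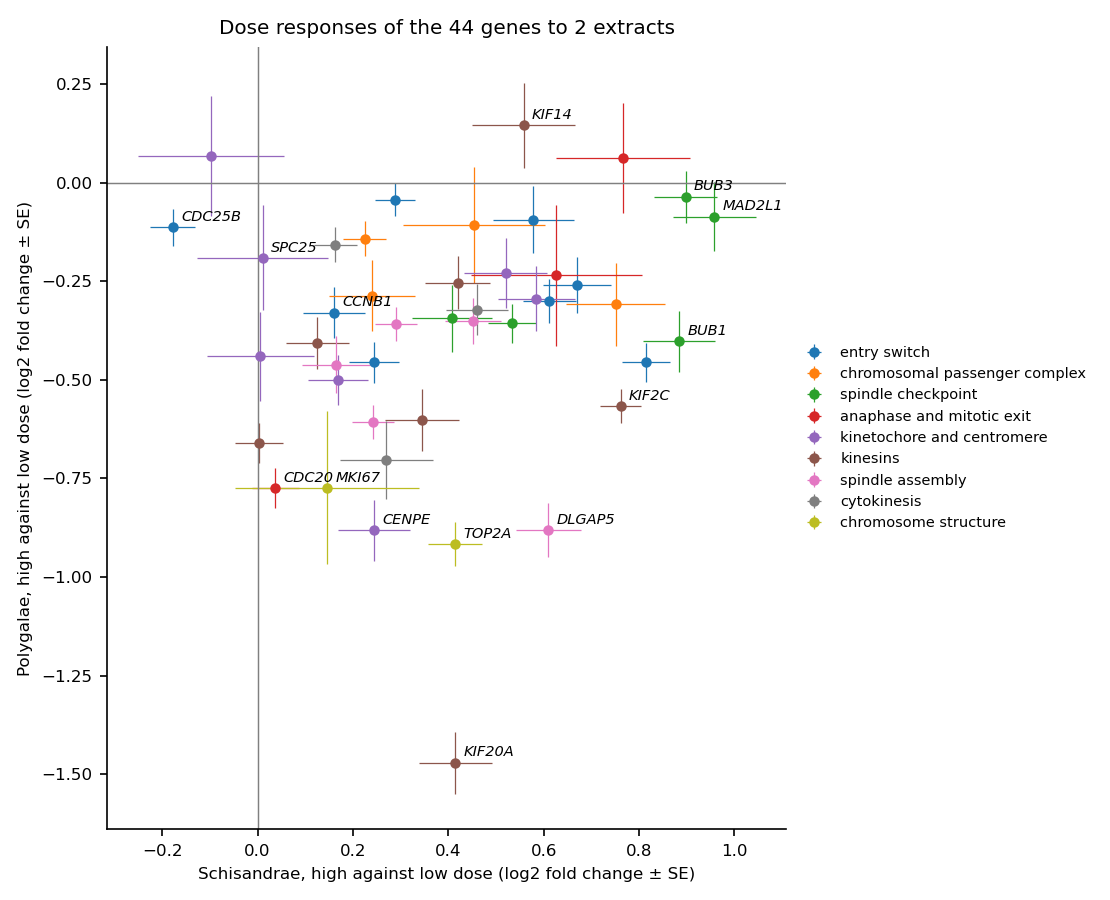
log2 fold change with SE of each of the 44 genes between high and low dose of Schisandrae (x axis) and of Polygalae (y axis), coloured by role. Most points lie in the lower right quadrant; MAD2L1 and BUB3 lie far right near a Polygalae value of 0, and KIF20A lies lowest at -1.47.

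Wortmannin lowered most of the 44 genes by small amounts. Against vehicle 33 of the 44 fell and none rose, where 6.52% of all tested genes fell, with a median log2 fold change of -0.29 against 0.01 for all tested genes. All 44 estimates were negative, from -0.52 for CDC20 to -0.11 for KIF20A. At least 1 member of every role fell. Of the 33 calls, 21 held in every alternative analysis that was run.

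CDC20 led, with 154, 164 and 170 CPM against 242, 231 and 225 CPM for vehicle, and fell by 0.52 (SE 0.05, adjusted p = 1.51e-10). The 2 groups did not overlap, nor did they for AURKA, which read 90.6, 89.8 and 92.9 CPM against 116, 119 and 118 CPM and fell by 0.37 (SE 0.04, adjusted p = 1.08e-08). PLK1 fell by 0.34 (SE 0.05), from 151, 150 and 152 CPM to 112, 121 and 125 CPM, CCNB1 by 0.32 (SE 0.07), from 177, 182 and 178 CPM to 143, 141 and 147 CPM, and CDK1 by 0.33 (SE 0.08), from 60.6, 61.7 and 58.8 CPM to 49.3, 48.2 and 46.7 CPM. Each pair of groups was again separate. CENPE fell by 0.42 (SE 0.08), from 56.4, 63.4 and 64.5 CPM to 47.6, 47.0 and 43.1 CPM, and SPC25, which was not called under either extract, by 0.42 (SE 0.13, adjusted p = 0.0285), a call that was lost without any of 5 of the 6 libraries. BUB1 (55.1, 55.3 and 54.5 CPM against 67.7, 68.1 and 69.7 CPM) fell by 0.32 (SE 0.08). TPX2 went from 262, 272 and 266 CPM to 215, 223 and 217 CPM and fell by 0.29 (SE 0.04), and ANLN from 453, 501 and 514 CPM to 390, 394 and 380 CPM, by 0.34 (SE 0.10), a call lost without any of 4 libraries. The 11 genes not called were CDC25C, INCENP, BUB1B, BUB3, UBE2C, PTTG1, SPC24, CENPF, KIF14, KIF20A and MKI67. Of these, 9 were called in at least 1 alternative analysis. The count of members that fell was 41 without Liriopis_high replicate 1, 42 with only the compared groups and 26 with no filter on low counts. All genes called, in either direction, were 4108, 4083 and 1180 in these fits, in the same order, and 2129 in the main fit.

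KIF20A, with the largest fall under Polygalae, was not called with wortmannin, at 126, 126 and 126 CPM against 134, 146 and 130 CPM (log2 fold change -0.11, SE 0.08, adjusted p = 0.392). TOP2A fell by 0.22 (SE 0.06), from 455, 488 and 497 CPM to 428, 401 and 404 CPM, and that call was lost when low counts were not filtered. MKI67, at 285, 306 and 295 CPM against 333, 378 and 392 CPM, was separate between groups but not called (-0.32, SE 0.19, adjusted p = 0.338), and UBE2C likewise (-0.27, SE 0.14, adjusted p = 0.245). Of the 33 genes that fell under Polygalae and the 33 that fell with wortmannin, 28 were on both lists, and these comparisons share no library. Because vehicle and wortmannin libraries belong to different sets, treatment and set cannot be told apart here.

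Aucklandiae Radix at its high dose changed few of these genes, again with KIF20A first. Between high and low dose 4 fell and none rose, with 5.3% of all genes lower, a share near that of the members. KIF20A read 95.8, 97.5 and 104 CPM against 132, 141 and 139 CPM at the low dose and 129, 128 and 140 CPM at the medium dose. The high dose alone lay apart, and KIF20A fell by 0.47 (SE 0.08, adjusted p = 1.09e-05). NUSAP1 (SE 0.06) fell by 0.24, CCNB2 (SE 0.06) by 0.23 and PRC1, the crosslinker of midzone microtubules, by 0.20 (SE 0.04). Without Liriopis_high replicate 1 in the fit 9 members fell, and all genes called, in either direction, went from 1890 to 3489. Of 3 tested epithelial markers 2 fell in the same comparison, and their part was not tested. Against vehicle 6 fell, with 6.69% of genes lower, and 3 did without Aucklandiae_high replicate 2. The medium dose had no member called against the low dose (0.0169% of genes called) or vehicle (0.455%), and the low dose none against vehicle (0.00562%).

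Longan Arillus left no member called between high and low dose (0.247% of genes called) or between medium and low (0%). At an unadjusted p below 0.05, 10 and 0 members passed, and the share of all genes passing that threshold is not given here. Group means rose at each dose step for 30 of the 44, which are not independent, with no share over all genes to set beside it. Against vehicle the high dose had 1 member higher, KIF2C, at 93.7, 90.5 and 92.5 CPM against 82.4, 81.5 and 82.4 CPM (log2 fold change 0.17, SE 0.04, adjusted p = 0.0448), with 0.843% of genes called. That count was 5 by DESeq2, 18 without Liriopis_high replicate 1 and 0 without any of the 6 libraries compared. All genes called were 150 in the main fit, 379 by DESeq2 and 1269 without Liriopis_high replicate 1. Longan_medium (0.0281%) and Longan_low (0.00562%) had none against vehicle.

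Zizyphi Semen raised 1 member, CDC25B, the gene that fell under Schisandrae. It read 344, 361 and 372 CPM at the high dose against 311, 320 and 310 CPM at the low dose, without overlap (log2 fold change 0.19, SE 0.05, adjusted p = 0.0270), with 0.674% of genes called. Leaving out any of 5 of the 6 libraries ended the call, and 3 members were called without Liriopis_high replicate 1. All genes called went from 120 to 518 without that library. CDC25B was also the gene called against vehicle (0.20, SE 0.05, adjusted p = 0.0188; 0.607% of genes called), a call that ended when any of 5 libraries, each of the vehicle libraries among them, was left out. Zizyphi_medium had no member called against the low dose (0.0112%) or vehicle (0.0393%), and Zizyphi_low none against vehicle (0%).

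Liriopis had calls that all rest on 1 library. Between high and low dose 8 members were called higher and 8 lower, with 16.1% of all genes called, and against vehicle 12 and 12, with 34% called. Without Liriopis_high replicate 1 each of these 4 counts was 0. Securin, PTTG1, read 370, 123 and 125 CPM in the 3 high-dose libraries against 135, 128 and 109 CPM at the low dose, so that only replicate 1 differed. MKI67 showed the reverse, with 87.5, 345 and 302 CPM against 332, 349 and 413 CPM. Replicate 1 lay above both other libraries of its group for 20 genes, below both for 21 and between them for 3.

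The departures of that library went with transcript length. The 10 members with the shortest summed exons (1.29 to 2.80 kilobases) had a median log2 ratio to the Liriopis_low mean of 0.52 in replicate 1, and 9 of them lay above it. For the 10 longest (6.01 to 12.8 kilobases) the median was -0.58, and 3 lay above it. In replicates 2 and 3 the medians of both sets lay between -0.06 and -0.02. Across the 44 genes, which are not independent and share this library, the log2 ratio of replicate 1 and the exon length had a Pearson's r of -0.60 and a Spearman's rho of -0.59; the part of RNA quality in this was not tested. Liriopis_medium had no member called against the low dose (0%) or vehicle (0.0112%), and Liriopis_low none against vehicle (0.00562%).

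**Figure D5:**
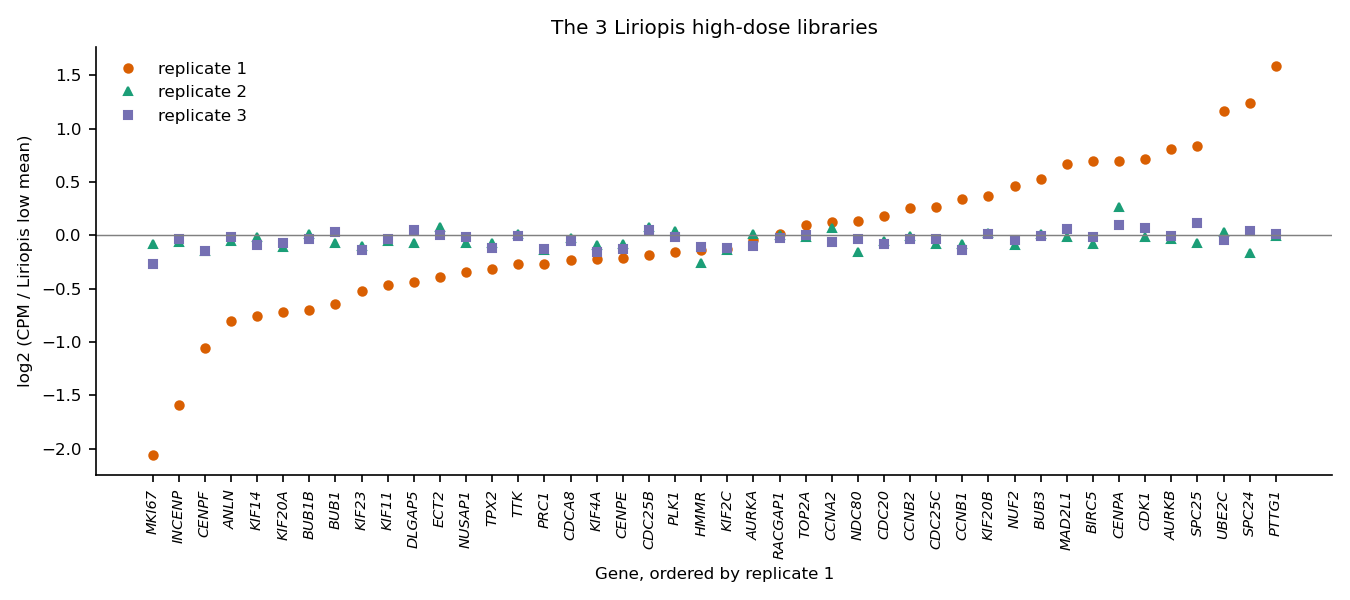
log2 ratio of each Liriopis_high library to the mean of the 3 Liriopis_low libraries (y axis) for the 44 genes, ordered by replicate 1 (x axis). Replicate 1 runs from -2.06 (MKI67) to 1.58 (PTTG1), while replicates 2 and 3 stay between -0.27 and 0.27.

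In the comparisons above with no member called by edgeR, DESeq2 called none either, and 0 to 4 of the 44 genes passed an unadjusted p below 0.05, or 10 for Longan_high against Longan_low. The share of all genes passing that threshold is not given here, so these counts are not read as a result about the members.

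Other genes of the division machinery were read from hand-written lists. Between high and low dose of Schisandrae, 25% of all tested genes were higher and 24.8% lower, and for Polygalae 17.9% and 18.3%. With wortmannin 5.45% were higher and 6.52% lower. These shares are the background of the counts that follow. Inner and outer kinetochore genes split under Schisandrae, with 9 of 25 higher and 8 lower, not far from those shares: HJURP, the chaperone of CENPA, rose by 1.00 (SE 0.06), whereas ZWINT fell by 0.79 (SE 0.05) and NSL1 by 0.63 (SE 0.09) on the log2 scale. Under Polygalae 5 rose and 4 fell, shares near those of all genes, and HJURP rose there too (log2 fold change 0.27, SE 0.06), while the scaffold KNL1 fell by 0.61 (SE 0.16). With wortmannin 14 of the 25 fell and none rose, with SKA1 lower by a log2 fold change of -0.46 (SE 0.05). Condensin and cohesin genes numbered 8 higher and 4 lower of 21 under Schisandrae and 2 and 8 under Polygalae, where SMC2 fell by 1.03 (SE 0.06), from a mean of 129 to 62.9 CPM, and NCAPD2 by 0.97 (SE 0.11). With wortmannin 9 of the 21 fell and none rose. Of 17 genes of the anaphase-promoting complex, 5 rose and 3 fell under Schisandrae, with its E2 enzyme UBE2S at 0.86 (SE 0.16) and CDC23 at 0.40 (SE 0.07) in log2 fold change, and 0 and 3 under Polygalae. Apart from the absence of rises under Polygalae, these counts for the anaphase-promoting complex lie near the shares of all genes. With wortmannin 3 of the 17 fell and none rose.

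Centrosome genes rose in 8 of 16 cases under Schisandrae, with NEK2 (log2 fold change 0.68, SE 0.05) and CENPJ (1.18, SE 0.09) among them, and 1 fell. Under Polygalae 2 of the 16 rose and 4 fell, and with wortmannin 9 fell and none rose. Tubulin subunits, the building blocks of the spindle and of the whole microtubule network, fell in 9 of 10 cases under Polygalae: TUBA1B went from a mean of 2000 to 1044 CPM and fell by 0.94 (SE 0.07), TUBB by 0.69 (SE 0.04) and TUBB3 by 1.14 (SE 0.10). Under Schisandrae 4 of the 10 fell and 1 rose, with TUBB3 at -0.95 (SE 0.09), and with wortmannin 5 fell and 1 rose.

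The regulators that act at such promoters moved in mixed directions. Of 13 genes of the MuvB, B-MYB and FOXM1 list, 3 rose and 6 fell under Schisandrae, with MYBL2 (B-MYB) going from a mean of 44.9 to 26.0 CPM, where it fell by 0.79 (SE 0.07), and TFDP1 falling by 0.64 (SE 0.04). The share that rose is near that of all genes. Under Polygalae 6 rose and 1 fell, the rises including LIN54 (log2 fold change 0.49, SE 0.09), which binds the CHR, and LIN52 (0.46, SE 0.06). With wortmannin 5 fell and 1 rose, MYBL2 falling by 0.84 (SE 0.07) and FOXM1 by 0.28 (SE 0.09).

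Inhibitors of mitotic entry rose in 7 of 10 tested cases under Schisandrae, including GADD45B (log2 fold change 0.91, SE 0.13), GADD45A (0.79, SE 0.12) and CDKN1B (0.56, SE 0.07), and 1 fell. Under Polygalae 4 rose and 3 fell, the rises led by CDKN1A (p21), which went from a mean of 19.5 to 43.1 CPM (1.14, SE 0.08), and WEE1, the kinase that holds CDK1 inactive (0.37, SE 0.06). With wortmannin 2 of the 10 inhibitors rose and 4 fell. Genes of DNA replication, which act earlier in the cycle, were called in both directions: 15 of 24 fell and 2 rose under Schisandrae, with MCM3 going from a mean of 124 to 47.0 CPM, where it fell by 1.40 (SE 0.05), and 12 fell and 7 rose under Polygalae, where RRM1 fell by 0.83 (SE 0.04). With wortmannin 14 fell and none rose, RRM2 falling by 0.48 (SE 0.03).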

How the data were processed

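The members, the gene lists and the tests were chosen with earlier results of these data known. The authors deposited expected counts per gene from RSEM, version 1.3.3. FastQC 0.11.9, STAR 2.7.3a, Trim Galore 0.6.5 and the GRCh38 build are also listed, per the submitters' processing notes, and for the gene annotation and the strand option of the counter no release or setting is known. Libraries were made with a directional mRNA kit and read as pairs of 100 bp, per the labels' protocols. Fractional values made up 11.02% of the deposited expected counts and were rounded. Symbols were found for 56558 of 60675 identifiers, and GENCODE release 29 gave exon lengths.

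A single quasi-likelihood model (edgeR 4.0.16, R 4.3.3) was fitted to the 60 libraries with TMM factors, a mean per group, edgeR's filter at a minimum count of 10 and 40 residual degrees of freedom. The biological coefficient of variation was 8.72%. Adjusted p-values are Benjamini-Hochberg over 17792 genes within each of 32 comparisons (12 between doses of a herb, 19 against vehicle and 1 between the Schisandrae and Polygalae dose steps), and every adjusted p in the text is from edgeR. "Rose", "fell" and "called" mean an adjusted p under 0.05. Standard errors (SE) were computed as the absolute log2 fold change over the square root of F. Roles and lists were written by hand. Per-library values were set for 20 of the genes and for the 3 largest rises and falls of the main comparisons, and other lists are represented by up to 4 genes of smallest p. The fit was tested on simulated data. Alternatives were DESeq2 1.42.0, its size factors, no filter, only the compared groups, a replicate block, leaving out 1 library and a shorter promoter window. For each comparison the libraries left out, 1 at a time, were those of its own groups and Liriopis_high replicate 1. Library sets were read from the first part of the library names, which no label explains.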

Additional observations from a re-analysis of the deposited data

Results flagged for a closer look

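The Schisandrae and Polygalae dose steps had different effects on these genes, by a test of the difference between the 2 log2 fold changes. It called 41 of the 44 genes, all with the larger value under Schisandrae. Of the 44, 27 rose under Schisandrae and fell under Polygalae, whereas others of the 41, such as UBE2C and KIF14, had estimates above 0 in both. The differences were greatest for KIF20A (1.89), DLGAP5 (1.49), TOP2A (1.33) and KIF2C (1.33). All 3 Schisandrae_high libraries lay above all 3 Schisandrae_low libraries for these 4 genes, and all 3 Polygalae_high libraries below all 3 Polygalae_low libraries. The 4 genes were picked for the size of that difference, so the separation of their libraries is no separate support for it.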

How the results depend on the processing

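Of the called members, 31 of 36 (Schisandrae high against low), 29 of 33 (Polygalae high against low), 21 of 33 (wortmannin), 4 of 8 (Polygalae medium against low) and 38 of 41 (the difference between the 2 dose steps) were called in every alternative, and 0 of 16 for Liriopis_high against Liriopis_low. The other scaling moved the median of all genes by at most 0.0105 (log2). Same-numbered libraries did not clearly deviate together (correlations from -0.12 to 0.22, and in no comparison were all 3 over 0.1), and the main fit does not pair them. Correlations over all tested genes cannot exclude a weak effect shared by number. With the replicate block, 34 members rather than 33 fell with wortmannin and 5 rather than 6 for Aucklandiae_high against vehicle, and the other counts of members did not change.

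Without the filter on low counts, members lower were 4 (Polygalae medium against low), 1 (Aucklandiae high against low), 5 (Liriopis high against low) and 2 (Aucklandiae high against vehicle), and members higher were 0 for Zizyphi high against low and, against vehicle, for Polygalae medium, Polygalae low, Longan high and Zizyphi high. With only the compared groups, 7 fell for Aucklandiae high against low, 0 were called in either direction for Liriopis high against low or vehicle, 0 rose for Zizyphi high against low, and against vehicle 1 rose for Schisandrae medium, 2 for Polygalae high, 1 for Polygalae medium, 5 for Polygalae low and 3 for Longan high. DESeq2 gave 0 higher for Polygalae high and 5 for Longan high, both against vehicle. With the promoter window cut to 200 bases before the start, 48.6% of member promoters held a CHR match (11.3% of all genes) and 43.2% held both motifs (3.59%). The cause of these shifts was not tested.

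With 1 library of the compared groups, or Liriopis_high replicate 1, left out, the counts ran as follows. Counts of all genes called also moved in these fits. Against the low dose, members higher were 0 to 2 for Schisandrae medium and for Longan high, 0 to 3 for Zizyphi high and 0 to 11 for Liriopis high, and members lower 5 to 9 for Polygalae medium, 3 to 9 for Aucklandiae high and 0 to 17 for Liriopis high. Against vehicle, members higher were 0 to 1 for Schisandrae medium and Zizyphi high, 0 to 2 for Polygalae high, 1 to 7 for Polygalae medium, 1 to 6 for Polygalae low, 0 to 18 for Longan high and 0 to 16 for Liriopis high, and members lower 5 to 9 for Polygalae medium, 3 to 8 for Aucklandiae high and 0 to 16 for Liriopis high. Without Liriopis_high replicate 1 the Liriopis high against low log2 fold changes of AURKB (-0.02624), UBE2C (-0.01764), PTTG1 (-0.005733) and SPC24 (-0.06378) turned negative, where with any other library left out they reached at most 0.4479, 0.6946, 0.9914 and 0.7421. The 3 libraries a group limit what small changes can be called. Of the 44 genes MKI67 and PTTG1 had the widest errors. They also had the lowest and highest log2 ratios in Liriopis_high replicate 1 (-2.06 and 1.58). Each gene's spread is estimated over all groups, so this library enters those errors in every comparison. The errors without it are not given here, but calls changed when it was left out. Members lower with wortmannin were then 41 rather than 33, and members higher in Longan_high against vehicle 18 rather than 1. The difference between the Schisandrae and Polygalae dose steps kept 41 members.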
